A study of Mus musculus with 7 samples.

Results

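Metalloproteinases cut matrix and cell surface proteins with a zinc ion in their active site, and 9 genes of this machinery were followed in neutrophils of the injured liver. They were the matrix metalloproteinases Mmp12, Mmp14 and Mmp19, which are not classical enzymes of neutrophil granules, the membrane proteases Adam8, Adam9, Adam10 and Adam17, and the inhibitors Timp1 and Timp2. The genes were chosen by name, for their family and function, with earlier results of these data known. All 9 were among the 16047 genes of the deposited expression table. The study asked how a lack of Ly6Chi monocytes affects neutrophils in acetaminophen-induced liver injury (AILI), in which an overdose of acetaminophen kills hepatocytes around the central veins. Neutrophils were sorted as CD11b+Ly6CloCX3CR1-GFP-Ly6G+ cells, 50000 per liver, at 24 h after acetaminophen, and their RNA was read from its 3′ end. There were 4 PBS libraries (replicates 5 to 8), from control mice, and 3 MC-21 libraries (replicates 2 to 4), from mice without infiltrating Ly6Chi monocytes, 1 liver each. MC-21 is an antibody to CCR2, the chemokine receptor that such monocytes need to leave the bone marrow, and was given as 400 µL of conditioned medium with 29 µg/mL, starting 12 h before acetaminophen and then every 24 h.

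All 7 mice received acetaminophen, so a normal liver was not part of the comparison, and PBS is not a matched control antibody or conditioned medium. The labels give the strain as C57BL/6, and the study's methods describe male mice 8 to 12 weeks old. The GFP gate belongs to mice that carry a reporter in Cx3cr1, which the methods list beside wild-type mice. The sources used here do not say which of these the libraries came from.

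Matrix metalloproteinases are made as inactive precursors and break down collagens, elastin and other matrix proteins once their propeptide is removed. ADAM proteases sit in the cell membrane and release, or shed, the outer part of other membrane proteins, among them TNF, adhesion molecules and cytokine receptors. TIMP proteins bind the active site of many of these enzymes and block it. In an injured liver, such proteases are known for opening paths through matrix, for trimming receptors from migrating leukocytes and for matrix removal during repair.

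The zinc-binding site is what unites the 7 proteases, and its coding sequence is shown for each of them. Each line gives 33 coding bases of mm9, 5′ to 3′ on the coding strand, with the codons of the 3 zinc-binding histidines and of the catalytic glutamate in capitals.
Mmp12, chr9:7352914-7352946, plus strand: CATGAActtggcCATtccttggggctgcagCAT
Mmp14, chr14:55056464-55056496, plus strand: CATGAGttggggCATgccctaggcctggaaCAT
Mmp19, chr10:128232729-128232761, plus strand: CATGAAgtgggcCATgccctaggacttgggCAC
Adam8, chr7:147173792-147173824, minus strand: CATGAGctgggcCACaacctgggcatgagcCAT
Adam9, chr8:26100798-26100830, minus strand: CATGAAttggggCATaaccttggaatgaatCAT
Adam10, chr9:70602103-70609392, plus strand, across an intron: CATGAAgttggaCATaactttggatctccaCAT
Adam17, chr12:21342593-21342625, minus strand: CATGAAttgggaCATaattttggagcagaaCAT

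The 21 pairs of these sequences shared between 19 and 26 of their 33 bases. Adam10 and Adam17, the main sheddases of many cell types, shared 26, and Adam8 and Adam17 shared 19. The sequencing reads came from the 3′ ends of the transcripts, so the values below carry no information on these sites. Timp1 lies at chrX:20447292-20451861 on the plus strand and Timp2 at chr11:118162383-118217054 on the minus strand of mm9.

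Expression is given as RPKM, read numbers scaled to transcript length and to the mapped reads of a library, as the authors deposited it. The RPKM worth of 1 read, read from the low values of the table, gives the depth: in a transcript of 1 kb, 1 RPKM was 2.66 to 3.98 reads in PBS libraries and 1.59 to 3.59 reads in MC-21 libraries. The median log2(RPKM + 1) of a library was 3.13 to 3.23 in PBS and 2.89 to 3.07 in MC-21, and the median difference of the 9594 genes tested was -0.15. After each library was centred on its median, it was 0.02. Of these genes, 60 had a limma adjusted p under 0.05 (0.625%), 19 higher (0.198%) and 41 lower (0.427%) in MC-21. With the libraries centred there were 74 (0.771%), 44 higher (0.459%) and 30 lower (0.313%). The sorted cells held neutrophil transcripts in every library, with S100a9 at 12275 to 25041 RPKM. Ly6g, the gene of the sort, stood at 16.3 to 57.5 RPKM in PBS and 30.4 to 69 RPKM in MC-21. Ccr2 stood at 1.91 to 3.26 RPKM in PBS and 0 to 0.39 RPKM in MC-21. Endothelial and hepatocyte transcripts were present too, and the summed level of 6 endothelial markers was 1054 to 2392 RPKM in PBS and 1132 to 2205 RPKM in MC-21.

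The 9 genes differed in level by more than 2 orders of magnitude, and Adam8 alone made up 58.2% of their summed RPKM in PBS libraries and 73.8% in MC-21 libraries. These are levels of the sorted samples, and the part of transcripts from other cells in them was not tested. In PBS, the mean levels per length were, from high to low, 148 ± 38.6 RPKM for Adam8 (SD, n = 4, as for the others), 29.8 ± 3.21 for Mmp14, 28.7 ± 4.56 for Timp2, 21.3 ± 7.16 for Timp1 and 17.8 ± 4.23 for Adam17. Lower still were Adam9 at 4.97 ± 4.18 RPKM, Adam10 at 1.62 ± 1.01, Mmp19 at 1.49 ± 0.595 and Mmp12 at 0.353 ± 0.238. Only 3 steps in this order separated every PBS library of 1 gene from every PBS library of the next. Adam8 was 4.97-fold above Mmp14, Adam17 was 3.58-fold above Adam9, and Mmp19 was 4.22-fold above Mmp12. The other neighbours, Mmp14 to Adam17 and Adam9 to Mmp19, overlapped in their libraries. Among all genes of the table, the PBS mean of Adam8 was at the 96.8th percentile, those of Mmp14, Timp2, Timp1 and Adam17 lay between the 81.4th and the 87.2nd, and that of Mmp12 was at the 28.6th.

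In libraries read from the 3′ end a long transcript gives no more reads than a short one, and dividing by length then lowers its value. With RPKM multiplied by the length of the longest annotated coding transcript, 5 of the 9 genes changed rank. The order became Adam8, Timp2, Adam17, Mmp14, Adam9, Timp1, Adam10, Mmp19 and Mmp12, so the first and the last 3 places were the same and the order among Mmp14, Timp1, Timp2, Adam17 and Adam9 depended on the scale.

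**Figure D1:**
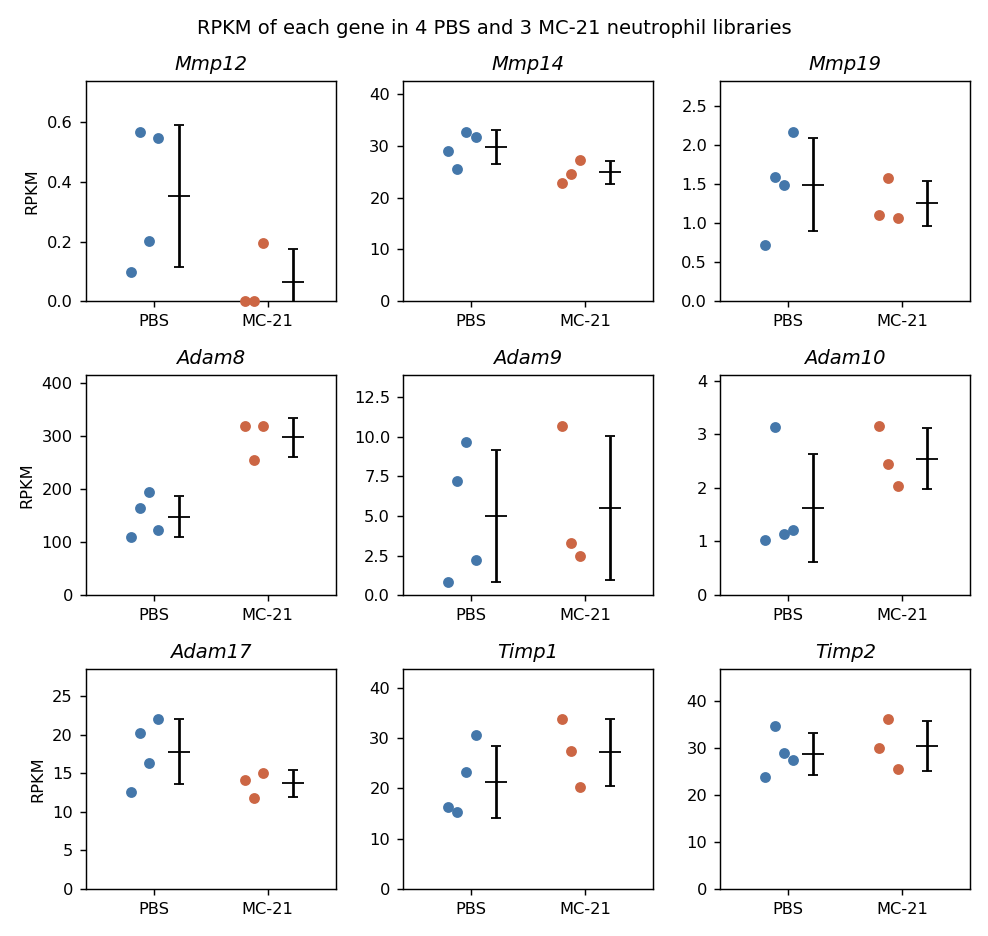
RPKM of each gene (vertical axes from 0, a scale per panel) in the 4 PBS libraries (blue) and the 3 MC-21 libraries (orange), points in the order of the replicate numbers, with the mean and SD beside them (the bar of Mmp12 in MC-21 is cut at 0). The groups were apart for Adam8 alone, and Adam9 spread from 0.806 to 9.68 RPKM within PBS.

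Of the 9 genes, 8 reached the mean of 1 RPKM that testing required, and 0 of them had an adjusted p under 0.05 (limma on log2(RPKM + 1), Benjamini-Hochberg over all genes). Adam8 was the 1 gene with an unadjusted p under 0.05, against 14.7% of all genes tested, and the 1 gene with no overlap between its groups, which was so for 13.3% of all genes. The difference was positive for 5 and negative for 3 genes, with a median of 0.16, where 69.4% of all genes tested were lower in MC-21. The fold given for each gene is that of RPKM + 1. Its 95% interval lay within 2-fold in either direction for 5 of the 8, which were Mmp14, Mmp19, Timp1, Timp2 and Adam17. The added 1 understates the change of a low gene such as Mmp19. Mmp19 reads gave an MC-21 over PBS ratio per depth of 0.775, with a 95% interval of 0.496 to 1.19 for counting error alone. Each value is an average over sorted cells, in which fewer cells of a type and less RNA per cell cannot be told apart.

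Mmp14 encodes a membrane-bound collagenase, which also activates other metalloproteinases. It was measured at 29.1, 25.5, 32.7 and 31.7 RPKM in PBS replicates 5 to 8 and at 22.8, 24.5 and 27.3 RPKM in MC-21 replicates 2 to 4. Its mean was lower in MC-21, at 24.9 ± 2.28 RPKM (n = 3), with PBS replicate 6 inside the MC-21 range. The difference was -0.25 on the log2 scale (SE 0.15, limma adjusted p = 0.491, two-sided exact permutation p = 0.114), a fold of 0.843 with a 95% interval of 0.665 to 1.07. Relative to the median of all genes it was -0.10.

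Mmp12, the macrophage elastase, was near the detection limit. Its values were 0.0976, 0.567, 0.203 and 0.545 RPKM in PBS, or about 1, 7, 2 and 8 reads, and 0, 0 and 0.194 RPKM in MC-21, or about 0, 0 and 2 reads. Reads were fewer in MC-21, and the groups overlapped. The 18 PBS and 2 MC-21 reads give a ratio per depth of 0.178, with a 95% interval of 0.02 to 0.742 that covers counting error only. Between libraries, the two-sided exact permutation p was 0.143, and the gene was below the mean set for the test across genes. The summed monocyte and macrophage markers were lower in MC-21 too (1128 to 1585 RPKM, against 1976 to 2296 in PBS), and their part in this result was not tested.

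Mmp19 encodes a secreted enzyme found in many tissues that cuts basement membrane proteins. Its levels were 0.718, 1.59, 1.49 and 2.17 RPKM in PBS and 1.11, 1.58 and 1.07 RPKM in MC-21, which rest on about 7 to 29 reads per library. All 3 MC-21 values lay inside the PBS range. The difference was -0.12 (SE 0.25, limma adjusted p = 0.857, fold 0.922 with a 95% interval of 0.624 to 1.36), and it turned positive, to 0.046, with the libraries centred and to 0.067 with quantile normalization.

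Among the ADAM proteases, Adam8, a protease of myeloid cells that is stored in neutrophils and sheds adhesion molecules, was higher in neutrophils from monocyte-deficient livers. It stood at 109.6, 165, 194 and 123 RPKM in PBS replicates 5 to 8 and at 320.1, 255 and 319 RPKM in MC-21 replicates 2 to 4. The lowest MC-21 library was above the highest PBS library. The means were 148 ± 38.6 (n = 4) and 298 ± 37.2 RPKM (n = 3), a difference of 1.04 on the log2 scale (SE 0.21), which is a fold of 2.05 with a 95% interval of 1.49 to 2.83. Each library gave about 943 to 3577 reads of Adam8, so counting error is small beside the spread between mice. The unadjusted limma p was 0.000626 and ranked 88th of the 9594 genes, the adjusted p was 0.0682, and the two-sided exact permutation p was 0.0286, the smallest that 35 splits allow. Adam8 thus missed the adjusted threshold as deposited and passed it in 1 alternative, with each library centred on its median (limma adjusted p = 0.0428). Over all alternatives its adjusted p ran from 0.0428 to 0.261. Leaving out any 1 library gave differences from 0.90 to 1.18.

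By the study's cutoffs, 2-fold with p under 0.05 before adjustment, 2.7% of all genes tested were called in the same fit and 1.02% were called higher in MC-21, Adam8 among them. The study itself reports higher Adam8 in MC-21 neutrophils, from these same libraries. Higher values without overlap were seen in 3.1% of all genes. The end of the last exon of Adam8 overlaps a lincRNA on the opposite strand, Gm16201, and the strand setting of the counting is not given in the sources used here. The exons of Mmp12 overlap those of Mmp1b in the same way, those of Mmp19 overlap 1110012D08Rik, and those of Adam17 overlap Iah1.

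The promoter of Adam8 is shown as that of the 1 gene whose groups were apart, 250 bases before to 50 after its start in RefSeq on GRCm38.p6, chr7:139992513-139992812, minus strand.
Adam8: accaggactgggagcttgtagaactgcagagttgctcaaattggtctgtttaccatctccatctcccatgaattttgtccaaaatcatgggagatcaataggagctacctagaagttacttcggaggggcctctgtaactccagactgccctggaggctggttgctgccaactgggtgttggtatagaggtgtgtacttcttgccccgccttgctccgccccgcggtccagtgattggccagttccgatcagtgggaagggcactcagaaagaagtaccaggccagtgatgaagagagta

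It was searched on both strands for TGANTCA, a site of the AP-1 factors that are known regulators of many metalloproteinase genes, and for GAGGAA, the core of the sites of the myeloid factor PU.1, which do not overlap each other. Neither was in this window. TGANTCA was found in 7.81% and GAGGAA in 28.3% of the 32851 mouse promoters of the same length. Promoters of 7 of the 9 genes were matched by symbol, and among them Mmp12 held both motifs and Adam10 held GAGGAA.

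Adam17, the TNF-converting enzyme, which also sheds cytokine receptors, was at 12.6, 20.3, 16.3 and 22 RPKM in PBS and 14.2, 11.8 and 15.1 RPKM in MC-21. The highest values were those of PBS replicates 6, 7 and 8, and PBS replicate 5 lay within the MC-21 range. The difference was -0.33 (SE 0.21, limma adjusted p = 0.509, fold 0.796 with a 95% interval of 0.574 to 1.1, two-sided exact permutation p = 0.2), and -0.18 relative to the median of all genes.

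Adam10, which cleaves Notch receptors and many adhesion molecules, was low, on about 13 to 52 reads per library. Its values were 1.02, 3.13, 1.14 and 1.21 RPKM in PBS and 3.16, 2.45 and 2.03 RPKM in MC-21. The MC-21 libraries lay above 3 of the 4 PBS libraries, and PBS replicate 6 was close to the highest of them. The difference was 0.49 (SE 0.29, limma adjusted p = 0.467, fold 1.4 with a 95% interval of 0.9 to 2.19).

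Adam9, a widely expressed relative, varied within each group more than between them. It was at 0.806, 7.21, 9.68 and 2.19 RPKM in PBS and at 10.7, 3.27 and 2.49 RPKM in MC-21. Its highest PBS library was 12-fold above its lowest, where the median gene tested had a ratio of 1.6 and 0.734% of 9534 genes had a ratio at least as high. These 2 libraries gave about 9 reads (exact Poisson 95% interval 4.12 to 17.1) and about 103 reads (84.1 to 125), so their spread is larger than counting error. The difference between groups was 0.24 (SE 0.63, limma adjusted p = 0.889), and its fold of 1.18 had a 95% interval of 0.441 to 3.15. It changed sign without PBS replicate 5, to -0.23, and without MC-21 replicate 2, to -0.30.

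Timp1, an inhibitor known to be induced in the injured liver, was at 16.3, 15.2, 23.2 and 30.6 RPKM in PBS and at 33.7, 27.5 and 20.2 RPKM in MC-21. The groups overlapped, with PBS replicate 8 above 2 of the 3 MC-21 libraries. The difference was 0.36 (SE 0.27, limma adjusted p = 0.571, fold 1.28 with a 95% interval of 0.847 to 1.94). Timp2, which inhibits metalloproteinases and also takes part with Mmp14 in activating Mmp2, was at 23.9, 34.8, 28.9 and 27.5 RPKM in PBS and at 30, 36.1 and 25.5 RPKM in MC-21. Its groups lay over each other, and its difference of 0.08 (SE 0.18, limma adjusted p = 0.861, fold 1.06 with a 95% interval of 0.799 to 1.4) turned to -0.041 without MC-21 replicate 3.

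**Figure D2:**
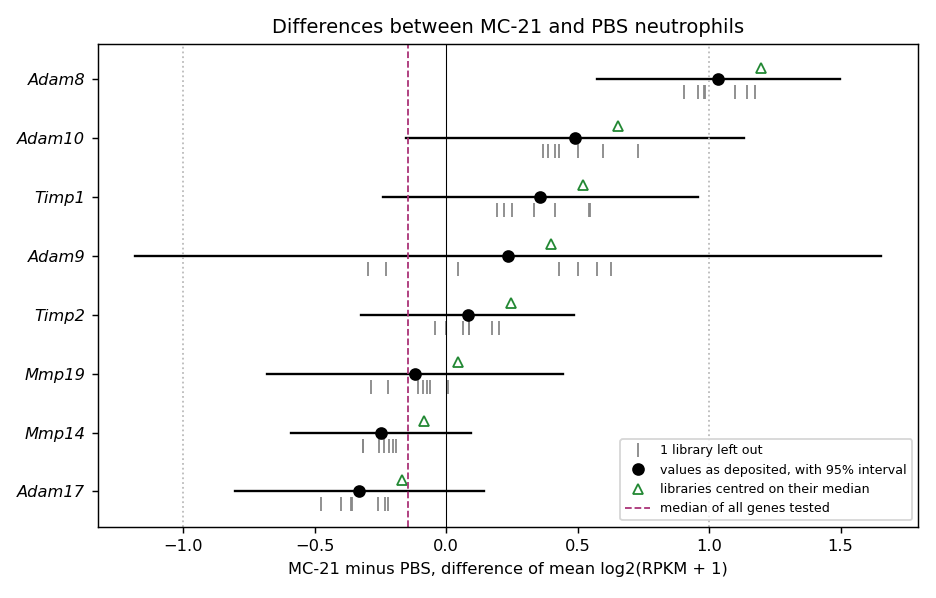
Difference of mean log2(RPKM + 1), MC-21 minus PBS (horizontal axis), for the 8 genes tested (rows), with its 95% interval (black), the values with 1 library left out (grey ticks) and the value with libraries centred on their median (green triangles). The dashed line is the median of all genes tested, -0.15, and the dotted lines mark 2-fold. The interval of Adam8, 0.57 at its lower end, is the only one of the 8 that does not contain 0.

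Next, 3 ratios between the genes were computed within each library, where a common scale cancels, and were chosen after the values had been seen. Adam8 over Adam17 was 8.72, 8.12, 11.9 and 5.58 in PBS and 22.5, 21.6 and 21.1 in MC-21, without overlap (two-sided exact permutation p = 0.0286, 0.0857 after Benjamini-Hochberg adjustment over the 3 ratios). Adam8 itself had no overlap in the same libraries, so this ratio is no separate result. The adjustment does not cover the choice of the ratios. Adam10 over Adam17 was 0.0548 to 0.154 in PBS and 0.134 to 0.222 in MC-21, with an overlap (exact permutation p = 0.0857, adjusted 0.114). The sum of Timp1 and Timp2 over the sum of Mmp12, Mmp14 and Mmp19 was 1.34 to 1.81 in PBS and 1.6 to 2.66 in MC-21, also with an overlap (exact permutation p = 0.114, adjusted 0.114). In RPKM, inhibitor transcripts thus exceeded those of the 3 metalloproteinases, mostly Mmp14, in all 7 libraries. This does not hold once Mmp9 is counted, which was at 230 to 368 RPKM in PBS and 294 to 309 in MC-21. Timp1 and Timp2 summed to 40.1 to 58.1 RPKM in PBS and 45.7 to 63.6 in MC-21.

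Marker genes of some other cells moved with the groups. The summed markers of hepatocytes, endothelial cells, dendritic cells and T and NK cells overlapped between them. The summed level of 15 monocyte and macrophage markers was 1976 to 2296 RPKM in PBS and 1128 to 1585 RPKM in MC-21. Of its 14 genes tested, 13 were lower in MC-21, 8 of them without overlap, and 1 was higher. With a limma adjusted p under 0.05, 5 fell, Ccr2, Fcgr1, C1qa, C1qb and C1qc, where 0.427% of all genes were called lower. The higher gene was Adgre1, at 12.9 ± 6.49 RPKM in PBS and 14.9 ± 9.73 in MC-21 (0.02). Mertk of this list stood at 0 in 1 PBS and 1 MC-21 library, and Ccr2 and Ms4a7 each in 1 MC-21 library. The 10 neutrophil markers summed to 17856 to 30492 RPKM in PBS and 27293 to 40773 RPKM in MC-21. This sum is made up mostly of S100a8, S100a9 and Retnlg. In the fit, 6 of the 10 were higher and 4 lower in MC-21. Only Cd177 had a limma adjusted p under 0.05 (1.66), where 0.198% of all genes tested were called higher. Camp differed by -1.89 (limma adjusted p = 0.281). The 5 Kupffer cell markers summed to 56.3 to 84.4 RPKM in PBS and 34.3 to 64.4 in MC-21, with Timd4 under 1 RPKM in every library. The 8 stellate cell and fibroblast markers, a known source of Timp1 in liver, summed to 7.19 to 13.7 and 5.08 to 12.1 RPKM, and Reln was at 0 throughout. The 4 B cell markers summed to 10.7 to 29.9 RPKM in PBS and 6.14 to 9.73 in MC-21, and the 4 eosinophil and platelet markers in the table to 82.6 to 250.1 and 41.8 to 69.2 RPKM, both without overlap. Most of the latter sum was Pf4, a platelet gene, which was lower in MC-21 without overlap, at 75 to 244 against 36.7 to 60.9 RPKM. Itga2b of the same list was higher in MC-21 without overlap, at 2.3 to 3.26 against 3.56 to 4.32 RPKM. Ppbp and Ccr3 of this list overlapped between the groups. The part of these markers in the differences above was not tested.

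**Figure D3:**
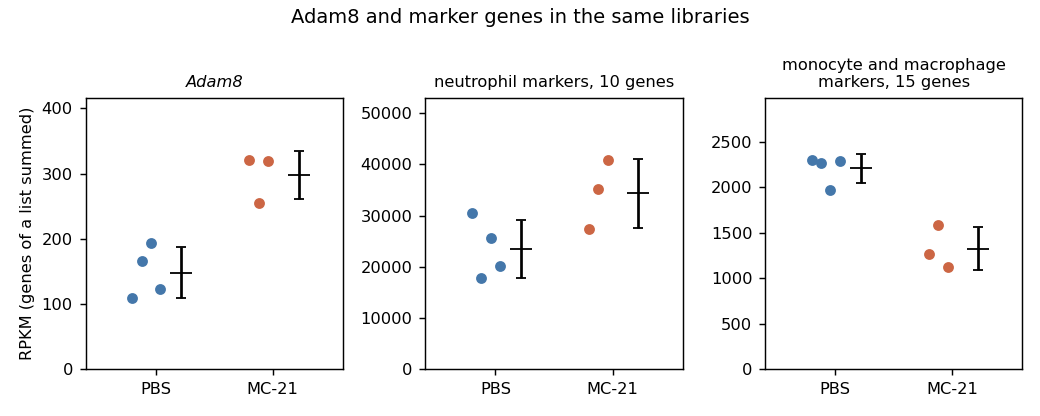
RPKM in each PBS (blue) and MC-21 (orange) library of Adam8, of 10 neutrophil markers summed and of 15 monocyte and macrophage markers summed (vertical axes from 0), with mean and SD. Adam8 and the monocyte and macrophage sum did not overlap between the groups, and the neutrophil sums did.

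The other metalloproteinases of the table gave few measurable genes. Of 13 listed, 3 passed the mean of 1 RPKM, and 0 had a limma p under 0.05, adjusted or not. Mmp9, the gelatinase of neutrophil granules, was at 315 ± 61.1 RPKM in PBS (n = 4) and 303 ± 8.35 in MC-21 (n = 3), a difference of -0.03 (95% interval -0.41 to 0.35, limma adjusted p = 0.952). Mmp8, the neutrophil collagenase, spread from 5.15 to 40.2 RPKM within PBS and from 8.45 to 49.8 within MC-21. Mmp25, a membrane-anchored enzyme of leukocytes, was at 3.23 ± 0.653 and 4.25 ± 1.55 RPKM. Mmp9 was thus the one transcript of this family at a level like that of Adam8.

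Timp3, the matrix-bound inhibitor that blocks Adam17 as well as metalloproteinases, was the 1 further inhibitor tested. It stood at 63, 66.8, 43.9 and 53.6 RPKM in PBS and 75.2, 91.3 and 115 RPKM in MC-21. The groups did not overlap, with MC-21 higher, as in 3.1% of all genes tested. The difference of 0.71 (SE 0.20, 95% interval 0.27 to 1.15) had a limma adjusted p of 0.165.

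Of 9 other ADAM genes, 3 were tested, and 0 had a limma adjusted p under 0.05 (1 before adjustment, Adam15). Adam15, at 23.6 ± 7 RPKM in PBS and 14.4 ± 2.36 in MC-21, differed by -0.64 (limma adjusted p = 0.280), Adam19 by 0.51 and Adam23 by 0.10. Of 12 ADAMTS proteases, which are secreted and act on proteoglycans, 4 were tested, again with 0 calls (2 before adjustment, Adamts7 and Adamts10). Before adjustment, 14.7% of all genes tested had a p under 0.05. Adamts7 differed by -1.03 (limma adjusted p = 0.274), Adamts10 by -0.48 and Adamts4 by 0.33.

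Partners of the sheddases were measured at moderate levels. They comprised the iRhom proteins and Frmd8, which carry Adam17 to the surface, tetraspanins that carry Adam10, and Furin and its relatives, which remove the propeptides. Of 13 listed, 9 were tested, 3 were higher and 6 lower in MC-21, with a median of -0.28 beside -0.15 for all genes. Of these 9, 0 had a limma adjusted p under 0.05 (1 before adjustment, Tspan17, where 14.7% of all genes tested passed). The largest differences were those of the tetraspanins Tspan15 (-0.49), Tspan5 (0.45) and Tspan17 (-0.44). The iRhom genes Rhbdf1 and Rhbdf2 were at 13.8 ± 2.54 and 14.1 ± 1.83 RPKM in PBS and at 10.5 ± 1.28 and 11.8 ± 4.25 RPKM in MC-21, and Furin was at 31.3 ± 4.18 and 32.1 ± 9.43 RPKM. Among 7 genes of plasminogen activation and Bsg, which induces metalloproteinases in other cells, 5 were tested, and 0 had a limma p under 0.05, adjusted or not. Plaur, the urokinase receptor, was at 259 ± 44.1 RPKM in PBS and 336 ± 61.1 in MC-21 (0.37, limma adjusted p = 0.368), and Plg differed by -0.69.

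Among the lists of related genes, calls were seen for the membrane proteins known to be shed and for no other list. Of 27 in the table, 21 were tested, 0 rose and 2 fell with a limma adjusted p under 0.05 (7 of either direction before adjustment), and the median was 0.15 beside -0.15 for all genes. Over all genes tested, 0.427% were called lower, 0.625% were called in either direction and 14.7% had a p under 0.05 before adjustment. Trem2, a receptor of macrophages, was at 10.7, 21.2, 27.6 and 18.7 RPKM in PBS and 3.18, 1.64 and 1.26 RPKM in MC-21 (-2.74, SE 0.32, limma adjusted p = 0.00853). Axl, a receptor for the uptake of dying cells, was at 4.77, 4.37, 5.84 and 7.15 RPKM in PBS and 1.05, 1.36 and 0.919 RPKM in MC-21 (-1.62, SE 0.21, limma adjusted p = 0.0139). Both groups of libraries were apart for these genes, whose levels moved with the monocyte and macrophage markers given above, and the part of those cells was not tested. Cxcl16, a chemokine held in the membrane, was next by size (-0.996, limma adjusted p = 0.170). Il1r2, a decoy receptor for interleukin-1 on neutrophils, was the 1 gene of the 21 tested that was higher without overlap, as were 3.1% of all genes. It was at 273, 224, 380.2 and 414 RPKM in PBS and 561, 520.2 and 813 RPKM in MC-21 (0.98, SE 0.24, limma adjusted p = 0.117). Tnf, a known substrate of Adam17, did not pass, at 119.7 ± 20.6 RPKM in PBS and 89.7 ± 23.8 RPKM in MC-21.

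Transcripts of matrix proteins were lower in MC-21 for 7 of 8 genes tested, where 69.4% of all genes were lower, with a median of -0.44 beside -0.15 for all genes, and 0 had a limma adjusted p under 0.05 (3 before adjustment, where 14.7% of all genes passed). These 3 were those with the largest differences. Fn1, which encodes fibronectin, differed by -1.76 (limma adjusted p = 0.0697), Spp1, which encodes osteopontin, by -1.58 (adjusted p = 0.241) and Hspg2, which encodes perlecan, by -0.92 (adjusted p = 0.185). Fn1 and Hspg2 had no overlap between their groups, which was so for 13.3% of all genes tested. The summed monocyte and macrophage markers were lower in MC-21 as well (1976 to 2296 RPKM in PBS, 1128 to 1585 in MC-21). The summed endothelial markers overlapped between the groups (1054 to 2392 RPKM in PBS, 1132 to 2205 in MC-21). The part of either cell type in these differences was not tested.

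**Figure D4:**
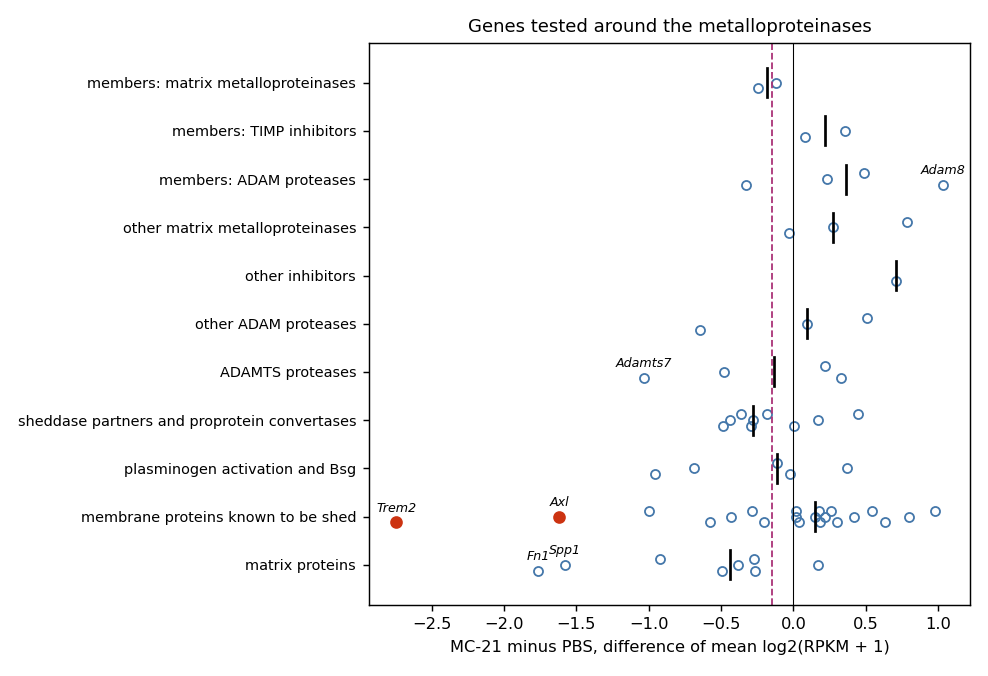
Difference of mean log2(RPKM + 1), MC-21 minus PBS (horizontal axis), of every gene tested in each list (rows). Open circles are genes without and filled red circles genes with an adjusted p under 0.05, black bars are list medians and the dashed line is the median of all genes tested, -0.15. The red circles are Trem2 (-2.74) and Axl (-1.62).

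For each of the 8 genes tested, the genes with the most similar profile were sought among the 5854 genes averaging 5 RPKM or more, by Pearson's r of log2(RPKM + 1) over the 7 libraries. With so few libraries and so many genes a high r is certain to be found, and the libraries share their group and depth, so these are descriptions. Adam8, at 109.6 to 320.1 RPKM, was most like Relt (r = 0.997, Spearman's rho = 1), which ran only from 25.3 to 34.1 RPKM. Next was Cd14 (r = 0.984, rho = 0.964), a co-receptor for lipopolysaccharide that ran from 391 to 1430 RPKM. A high r does not mean a change of like size. Adam9 was most like Slfn4 (r = 0.988, rho = 0.929) and Atf1 (r = 0.988, rho = 0.964), Adam10 like Cd36 (r = 0.979) and Ier3ip1 (r = 0.978), and Adam17 like Ass1 (r = 0.961) and Szrd1 (r = 0.949). The nearest genes were Rtcb (r = 0.987) and Acap3 (r = 0.977) for Mmp14, Gusb (r = 0.987) and Tepsin (r = 0.944) for Mmp19, Mgea5 (r = 0.953) and Prpf6 (r = 0.901) for Timp1, and Cdk2ap2 (r = 0.966) and Pnkd (r = 0.952) for Timp2. No member of the 9 was among the genes searched for another.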

How the data were processed

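Neutrophils of 4 PBS-treated and 3 MC-21-treated mice were profiled by 3′ RNA-seq (Illumina NextSeq). The authors used HISAT 0.1.5 for mapping to mm9, then SAMtools and Partek 6.6, and deposited RPKM values per gene. The annotation, the strand setting and any barcode handling are not given in the sources used here. Groups came from the sample titles, and every column of values matched 1 sample. The 9 genes, the lists and the tests were chosen with earlier results of these data known.

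PBS was subtracted from MC-21 on the log2(RPKM + 1) scale, which understates changes of low genes. Genes averaging 1 RPKM or more over the 7 libraries were tested with limma 3.58.1 in R 4.3.3 (lmFit, eBayes with a trend) and Benjamini-Hochberg adjustment. Single values had a two-sided exact permutation test over 35 splits. Data were simulated with 9594 genes for this comparison. Of 200 genes changed by 2 on the log2 scale, 175 were recovered (87.5%), and 8 unchanged genes were called. Smaller changes were not simulated, so the recovery of differences like that of Adam8 (1.04) or below was not tested. Read numbers are approximate, from the recovered depth and the longest coding transcript of GENCODE vM1. From each list, the genes with an adjusted p under 0.05 and the 3 largest differences were named. Rhbdf1, Rhbdf2, Furin, Il1r2 and Tnf were named after their values had been seen. Some genes of the lists are not reported here by name and stayed in the fits and counts. Other pseudocounts (0.1), filters (none, or a mean of 5 RPKM), scalings, models and left-out libraries were tried. Tables and figures were made with Python 3.11.15, pandas 2.3.3, scipy 1.17.1 and matplotlib 3.10.9.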

Additional observations from a re-analysis of the deposited data

Results flagged for a closer look

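Within the PBS group, 34 sets of 4 values were searched for a library far from the others with Dixon's ratio, the gap to the nearest value over the whole range, and 2 exceeded its 95% critical value for 4 samples. Chance marks about 1 in 20 such sets. For Adam10, PBS replicate 6 was highest (3.13 RPKM against 1.02 to 1.21 in the other PBS libraries), with a ratio of 0.912. For Plaur, PBS replicate 7 was highest (325 RPKM against 233 to 244), with a ratio of 0.885. The groups of 3 MC-21 libraries were not searched.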

How the results depend on the processing

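The count of all genes with an adjusted p under 0.05 was 60, and it became 6 with low genes kept, 4 with a linear model per gene and no moderation, and 259 with an unadjusted p under 0.05 and at least 2-fold. With 1 library left out it ran from 9 to 102: 39, 102, 14 and 9 without PBS replicates 5 to 8 and 19, 35 and 18 without MC-21 replicates 2 to 4. Of the 9 genes, 0 passed as deposited, and 1, Adam8, passed with libraries centred and by the unadjusted cutoffs. Multiplying RPKM by transcript length moved 5 genes in the order of levels. Of 111 alternative values of the single genes, 104 kept their direction and their side of the threshold, 1 (Adam8, libraries centred) newly passed it, and 6 changed sign. Mmp19 turned to 0.067 with quantile normalization and 0.046 with libraries centred, and ran from -0.29 to 0.0087 with 1 library left out (positive without PBS replicate 8). Adam9 then ran from -0.30 to 0.63 (negative without PBS replicate 5, -0.23, and without MC-21 replicate 2), and Timp2 from -0.041 (without MC-21 replicate 3) to 0.20. The cause was not tested. No paired analysis was possible because the groups share no replicate numbers. Depth limits Mmp12, Mmp19 and Adam10, which rest on at most 8, 29 and 52 reads in a library, and intervals from reads cover counting error only.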
